A study of Mus musculus with 12 samples.

Results

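Immediate early genes and other activity-regulated genes were examined across 3 diets: 35 genes, listed by symbol (among them Fos, the Egr and Nr4a genes, Arc and Npas4) and matched to their GENCODE identifiers in a table of 54752 genes. Poly(A) RNA was sequenced from cerebellar cortex of 12 wild-type (WT) male mice aged 12 weeks, all F1 hybrids of C57BL6J and FVB. Each diet had 4 mice: food ad libitum (AL), dietary restriction (DR) and a ketogenic diet (KD). The DR mice ate a reduced ration once a day, just before dark, and were killed early in the dark period without the meal due then, while AL mice had food throughout, so restriction and the missed meal cannot be told apart. The AL and DR mice that were sequenced had been chosen among those raised for their RNA quality. For AL and DR mice the paper describes a dissection that left out the cerebellar nuclei. The composition of KD, its start and the hour at which KD mice were killed are not given in the sources used here. Mice were numbered within a diet only to name them, and a number shared between diets pairs nothing.

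Immediate early genes are transcribed within minutes when a neuron is stimulated, without new protein synthesis, because calcium and ERK signals act on transcription factors that already sit at their promoters. Chief among these are CREB at the cAMP response element and serum response factor (SRF), with its ternary complex partners, at the CArG box. Many of the products are themselves transcription factors that switch on later genes, others such as the MAP kinase phosphatases shut the signal down, and a few such as Arc act at the synapse. In the cerebellum they are known to respond to activity in granule cells and Purkinje cells, and several also respond to stress hormones, growth factors and heat.

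Of the 35 genes, 34 passed the filter on low counts, and libraries held between 31712084 and 40798644 reads assigned to genes. Egr2, a zinc finger factor, was the gene left out, with 0 to 4 reads in a library. Values are CPM, the counts scaled to a common library size, and a gene is said to have changed where the quasi-likelihood F test of edgeR gave an adjusted p under 0.05, the adjustment (Benjamini-Hochberg) running over every gene tested in that comparison. In bulk tissue, fewer cells of a type and less RNA per cell cannot be told apart. Markers of cerebellar neurons fitted the labelled tissue: the 8 Purkinje cell markers summed to between 5760 and 7320 CPM in a mouse and the 8 granule cell markers to between 5840 and 6360 CPM, beside 4.24 to 5.87 CPM for 5 markers of forebrain excitatory neurons.

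Per length, the most abundant member was Dusp5, a nuclear phosphatase that switches off ERK. It stood at 37.6 ± 4.06 RPKM (CPM divided by the deposited gene length in kilobases; SD, n = 4) in AL mice. Nr4a1 (18.5 RPKM), Gadd45g (18.1 RPKM), Jun (16.7 RPKM), Dusp1 (15.6 RPKM) and Fos (13.4 RPKM) followed. The lowest were Egr3 (0.183 RPKM), Ptgs2 (0.0742 RPKM) and Egr2 (0.00867 RPKM), so that Egr1, at 9.48 RPKM, was by far the main EGR gene of this tissue. Of the 34 neighbouring pairs in this order, 7 had ranges over the AL mice that did not overlap and 27 did not differ beyond their spread. Exons of 5 members overlap genes on the opposite strand in the annotation used here: 52.6% of the exon bases of Jund, 22.1% of those of Dusp5, 7.52% of those of Junb, 7.28% of those of Jun and 0.332% of those of Dusp1. The library kit does not mark strand, so their levels can hold reads of the partner or lack reads set aside as ambiguous.

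DR mice had lower levels of Egr4, Egr1 and Nr4a1 and a higher level of Klf6 than AL mice. These were the 4 members that changed, 3 lower and 1 higher, among 34 tested (11.8%), beside 583 of 19052 genes tested (3.06%) in either direction, 1.74% lower and 1.32% higher. Over the 34 tested members, 22 had a negative and 12 a positive log2 fold change, with a median of -0.11 beside 0.0036 over all genes tested. At an unadjusted p under 0.05 there were 14 members, 12 lower and 2 higher, where 18% of all genes passed. The ranges of the diets did not overlap for 5 members, 3 lower and 2 higher, where 10.9% of all genes did so. In KD mice no member changed against AL mice, and 8 changed against DR mice. The signs for KD against AL were split nearly alike, 21 negative and 13 positive (median -0.03). The split of signs for DR against AL is therefore no result by itself.

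**Figure D1:**
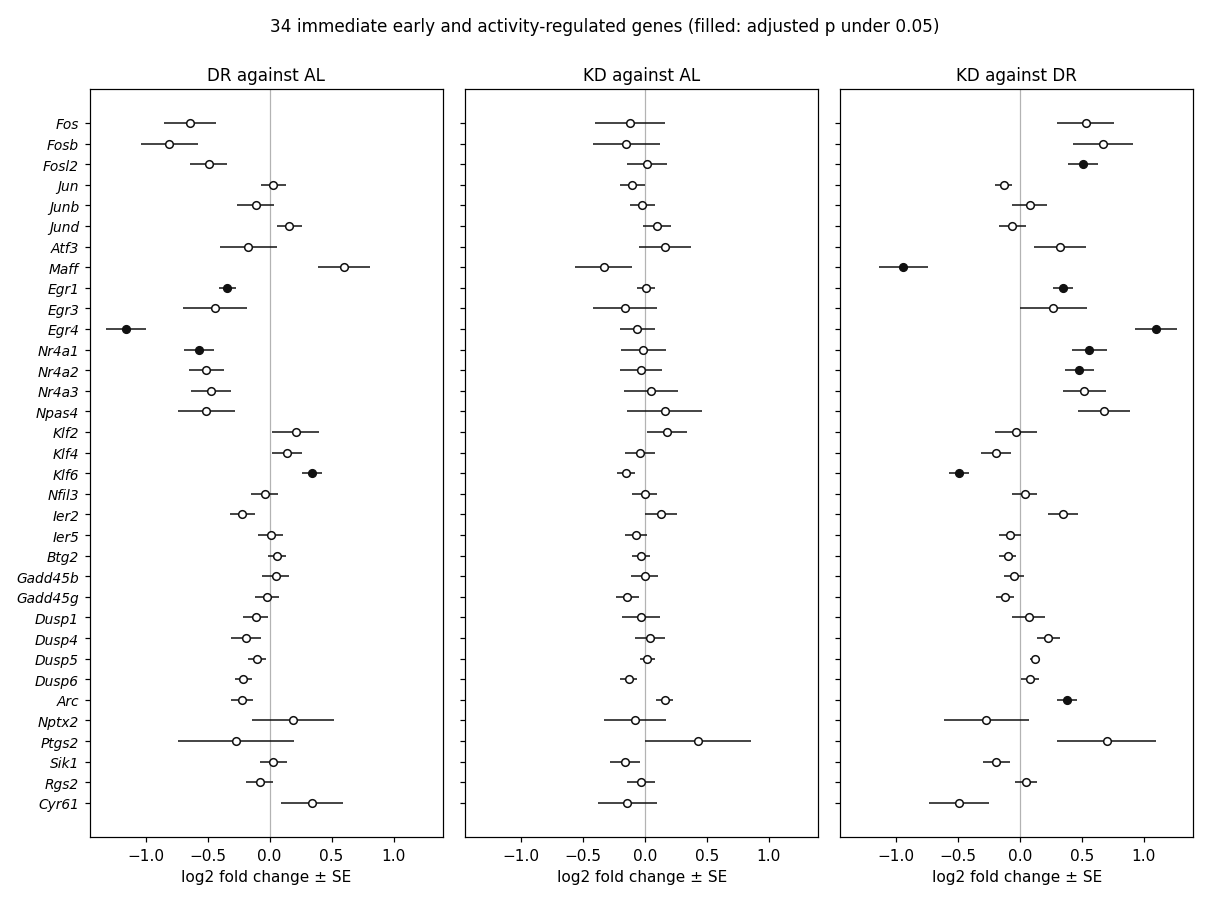
Log2 fold change (horizontal axis) with its standard error of the 34 tested genes (rows) in the 3 comparisons, with filled circles for an adjusted p under 0.05. Egr4 lies farthest to the left for DR against AL at -1.16 and farthest to the right for KD against DR at 1.10, and no circle is filled for KD against AL.

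Egr4, a zinc finger transcription factor of the EGR family (chr6:85511121-85513589, GRCm38, minus strand), differed most. It was at 2.61, 3.02, 2.41 and 2.95 CPM in the AL mice, at 1.2, 1.37, 0.978 and 1.35 CPM in the DR mice and at 2.44, 2.37, 3.20 and 2.52 CPM in the KD mice. Every DR mouse lay below every AL and every KD mouse, while the AL and KD ranges overlapped. The mean went from 2.75 ± 0.286 CPM in AL to 1.22 ± 0.181 CPM in DR (SD, n = 4), a log2 fold change of -1.16 (SE 0.16, adjusted p = 0.00164). KD exceeded DR by a log2 fold change of 1.10 (SE 0.17, adjusted p = 0.00139). Egr4 kept its call in 8 of 8 fits that each left out 1 mouse, in both comparisons, although it rested on a mean of only 80 reads in a library.

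Egr1, the best known EGR factor and a common marker of recent neuronal activity, was at 41, 43.9, 44.7 and 40.4 CPM in AL, at 36.2, 29.3, 32.8 and 35.7 CPM in DR and at 45.7, 40.0, 46.8 and 37.8 CPM in KD. Again the DR mice lay below all the others. The change was smaller than that of Egr4 but measured on a mean of 1444 reads in a library: DR against AL gave a log2 fold change of -0.34 (SE 0.07, adjusted p = 0.0133), a decrease kept in 8 of 8 fits without 1 mouse. For KD against DR it was 0.35 (SE 0.08, adjusted p = 0.0161). That call was lost without KD mouse 1 (0.31, adjusted p = 0.0648) and without KD mouse 3 (0.30, adjusted p = 0.0681). Egr3, another member of the family, had 0.805 ± 0.198 CPM in AL, 0.593 ± 0.11 CPM in DR and 0.714 ± 0.181 CPM in KD (SD, n = 4) and passed no test.

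To show what the promoters of these genes hold, the 250 bases before each RefSeq start site were searched on both strands for the cAMP response element TGACGTCA, its core TGACG, the CArG box (CC, then A or T at each of the middle positions, then GG), the EGR site GCGTGGGCG and the AP-1 site TGANTCA. The core lies within the full element, so that each full element also counts as a core on both strands, and it was added after the first searches had been seen. Printed below are the 200 bases before the start site of Egr4 (GRCm38.p6, chr6:85513590-85513789, minus strand), from 5′ to 3′ along the gene, with motif matches in capitals. It is shown because Egr4 differed most, and it holds the core at 2 places, both read on the opposite strand as CGTCA.
Egr4: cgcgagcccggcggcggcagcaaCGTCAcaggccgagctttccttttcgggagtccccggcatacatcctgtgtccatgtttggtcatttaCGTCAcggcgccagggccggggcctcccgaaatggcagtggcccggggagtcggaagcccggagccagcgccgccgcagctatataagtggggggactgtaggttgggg

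**Figure D2:**
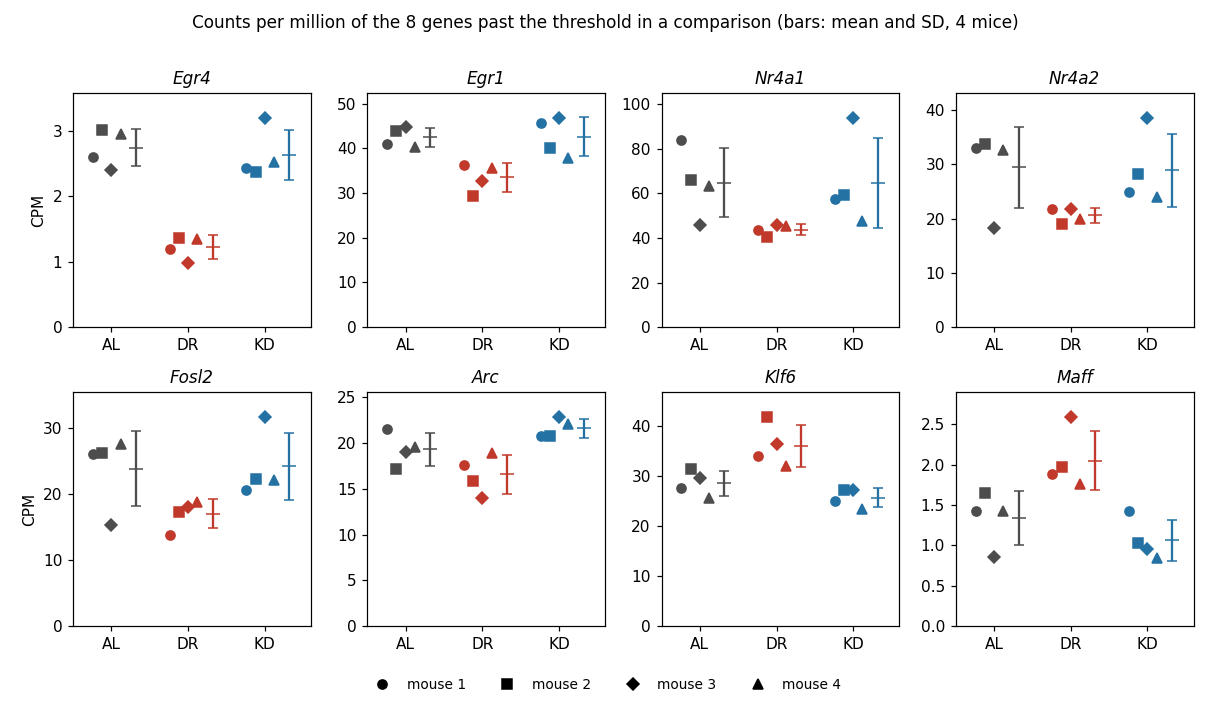
CPM (vertical axis, from 0) of the 8 members that changed in a comparison, for each of the 4 AL, DR and KD mice, with the mean and SD beside them; the marker shape gives the mouse number, which pairs nothing across diets. For Egr4, Egr1 and Nr4a1 every DR mouse lies below every AL mouse, and for Klf6 and Maff every DR mouse lies above all others.

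The NR4A genes encode orphan nuclear receptors that act without a known ligand and are induced by cAMP and calcium. Nr4a1 (chr15:101254269-101274795, GRCm38, plus strand) was at 83.9, 66.2, 46.0 and 63.1 CPM in AL, at 43.6, 40.3, 45.6 and 45.2 CPM in DR and at 57.7, 59.1, 93.8 and 47.4 CPM in KD. The DR mice were the lowest and the closest to each other, and AL mouse 3 lay just above the highest of them. DR against AL gave a log2 fold change of -0.57 (SE 0.12, adjusted p = 0.023). In fits without 1 mouse it was kept only without AL mouse 3 (-0.70, adjusted p = 0.000341) and was lost without any other mouse of AL or DR, at an adjusted p of up to 0.0643 and a fold change between -0.41 (without AL mouse 1) and -0.59 (without DR mouse 3). KD against DR was 0.56 (SE 0.14, adjusted p = 0.0311), a call lost without any of the 4 DR mice (adjusted p = 0.0654 without DR mouse 1, 0.0681 without DR mouse 2, 0.0594 without DR mouse 3 and 0.0576 without DR mouse 4). It was also lost by DESeq2 (adjusted p = 0.0864) and with all 12 libraries in one fit (0.0615), as was the call of DR against AL in the latter (0.0601). Without KD mouse 3 the call was kept, but the log2 fold change was 0.32.

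Nr4a2 (chr2:57106830-57124003, minus strand) was at 32.9, 33.8, 18.3 and 32.7 CPM in AL, at 21.7, 18.9, 21.8 and 20 CPM in DR and at 24.9, 28.2, 38.5 and 23.9 CPM in KD. All KD mice were above all DR mice, but in AL 3 mice were far above DR and AL mouse 3 was below all of them. KD against DR was called, with a log2 fold change of 0.48 (SE 0.12, adjusted p = 0.0239), and lost its call without DR mouse 2 (adjusted p = 0.055) or DR mouse 4 (adjusted p = 0.0571), by DESeq2 (0.0525) and with all 12 libraries in one fit (0.089). Without KD mouse 3 it was 0.32 (adjusted p = 0.0406). DR against AL was not (-0.51, SE 0.14, adjusted p = 0.0671) until AL mouse 3 was left out (-0.68, adjusted p = 5.22e-05). Nr4a3 likewise had a low AL mouse 3 and a high KD mouse 3, but its KD and DR ranges overlapped, at 51.4, 56.2, 27.9 and 53.7 CPM in AL, 28.9, 38.0, 33.5 and 36.1 CPM in DR and 41, 36.1, 76.2 and 42.0 CPM in KD. Its log2 fold change was -0.47 for DR against AL (adjusted p = 0.13; 0.000341 without AL mouse 3) and 0.52 for KD against DR (adjusted p = 0.0977). The latter reached an adjusted p of 0.0468 without KD mouse 2 and came to 0.22 (adjusted p = 0.204) without KD mouse 3. The promoters of these genes are the richest in cores of the cAMP response element among the members, with 4 each, of which 2 of Nr4a1 lie farther upstream than the bases printed. Those of the 2 genes with a call are shown over the same 200 bases, for Nr4a1 at chr15:101266646-101266845 (plus strand), a start site within the gene as annotated, and for Nr4a2 at chr2:57124004-57124203 (minus strand), both in GRCm38.p6, with cores in capitals.
Nr4a1: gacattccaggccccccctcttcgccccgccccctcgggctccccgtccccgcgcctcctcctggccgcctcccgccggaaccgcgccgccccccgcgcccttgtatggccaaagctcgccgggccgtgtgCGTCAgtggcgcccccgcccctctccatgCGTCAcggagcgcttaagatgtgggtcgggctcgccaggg
Nr4a2: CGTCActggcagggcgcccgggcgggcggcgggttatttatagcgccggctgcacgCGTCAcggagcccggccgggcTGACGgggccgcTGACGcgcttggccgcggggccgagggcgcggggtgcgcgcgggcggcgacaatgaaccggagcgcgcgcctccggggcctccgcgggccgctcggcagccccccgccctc

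Fos, Fosb and Fosl2 encode the FOS subunits of the dimeric factor AP-1, and Jun, Junb and Jund the JUN subunits with which they pair. Fos was at 44.6, 31.8, 16.6 and 33.2 CPM in AL, at 24.1, 15.8, 19.4 and 21.5 CPM in DR and at 26.2, 22.5, 50.8 and 17.2 CPM in KD. AL mouse 3 was the lowest of AL and KD mouse 3 the highest of all, and the ranges of the 3 diets overlapped. Its log2 fold change for DR against AL was -0.64 (SE 0.21, adjusted p = 0.11), and it was -0.85 with an adjusted p of 0.00186 without AL mouse 3 but -0.42 with an adjusted p of 0.319 without AL mouse 1. For KD against DR it was 0.53 (SE 0.23, adjusted p = 0.233), falling to 0.12 without KD mouse 3. Fosb, on a mean of 61 reads in a library, was at 2.54, 2.45, 1.15 and 1.96 CPM in AL, 0.971, 1.34, 1.15 and 1.18 CPM in DR and 1.64, 1.63, 2.90 and 1.21 CPM in KD. Its log2 fold change was -0.81 for DR against AL (adjusted p = 0.0731; 0.00825 without AL mouse 3, and 0.0343 by DESeq2) and 0.67 for KD against DR (adjusted p = 0.136). The latter was 0.36 with an adjusted p of 0.425 without KD mouse 3.

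Fosl2 (chr5:32135801-32157842, plus strand) was at 26.1, 26.2, 15.4 and 27.7 CPM in AL, at 13.9, 17.3, 18.1 and 18.9 CPM in DR and at 20.7, 22.3, 31.7 and 22.2 CPM in KD. Each KD mouse exceeded each DR mouse, and 3 of 4 AL mice did so too. KD against DR was called (log2 fold change 0.51, SE 0.12, adjusted p = 0.0219), though not without DR mouse 1 (0.42, adjusted p = 0.0588) or KD mouse 3 (0.35, adjusted p = 0.0559), nor with all 12 libraries in one fit (adjusted p = 0.068). DR against AL was -0.49 (SE 0.15, adjusted p = 0.09), and -0.65 with an adjusted p of 0.00112 without AL mouse 3. The JUN genes passed no test in any comparison: Jun was between 41.7 and 61.6 CPM, Junb between 3.22 and 5.46 CPM and Jund between 5.32 and 7.52 CPM over the 12 mice. Atf3, a stress-induced factor that dimerizes with JUN proteins, was between 0.770 and 1.29 CPM and passed none either.

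Klf6 and Maff were the members called as lower in KD than in DR, and Klf6 was also called as higher in DR than in AL. Klf6, a Krüppel-like zinc finger factor (chr13:5861482-5870394, plus strand), was at 27.5, 31.4, 29.5 and 25.5 CPM in AL, at 33.9, 41.7, 36.3 and 32 CPM in DR and at 25.0, 27.2, 27.1 and 23.3 CPM in KD. Every DR mouse was above every other mouse. The log2 fold change was 0.34 for DR against AL (SE 0.08, adjusted p = 0.0391) and -0.49 for KD against DR (SE 0.08, adjusted p = 0.00168). The second call was kept in 8 of 8 fits without 1 mouse and the first in 3 of 8, being lost without AL mouse 1 (adjusted p = 0.115), AL mouse 4 (0.127), DR mouse 1 (0.0576), DR mouse 2 (0.0927) or DR mouse 3 (0.0935). Maff, a small MAF factor without a transactivation domain of its own (chr15:79346621-79359076, plus strand), was at 1.43, 1.65, 0.861 and 1.43 CPM in AL, at 1.89, 1.97, 2.59 and 1.76 CPM in DR and at 1.43, 1.03, 0.958 and 0.850 CPM in KD. Its DR mice too were all above the rest, on a mean of 54 reads in a library. KD against DR was called, with a log2 fold change of -0.94 (SE 0.20, adjusted p = 0.0126), but not without DR mouse 3 (-0.81, adjusted p = 0.051), and DR against AL was 0.60 (SE 0.21, adjusted p = 0.133).

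The Maff promoter at the RefSeq start site after chr15:79347320-79347519 (GRCm38.p6, plus strand) holds both a full cAMP response element, 29 to 22 bases before the start, and an EGR site, 88 to 80 bases before it. It is shown with that of Btg2 (chr1:134079156-134079355, minus strand), an antiproliferative early gene that passed no test and stayed between 13.1 and 16.3 CPM over the 12 mice, and whose full element lies 166 to 159 bases before the start. Capitals mark the EGR site and the elements.
Maff: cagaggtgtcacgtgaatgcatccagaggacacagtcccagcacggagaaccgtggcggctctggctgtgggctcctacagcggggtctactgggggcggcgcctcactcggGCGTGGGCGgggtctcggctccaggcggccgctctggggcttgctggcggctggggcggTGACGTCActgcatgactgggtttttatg
Btg2: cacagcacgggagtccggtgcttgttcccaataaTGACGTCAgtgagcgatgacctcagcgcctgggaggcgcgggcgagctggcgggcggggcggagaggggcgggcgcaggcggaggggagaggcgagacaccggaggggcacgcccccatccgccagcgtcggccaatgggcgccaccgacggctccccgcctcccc

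Promoters were matched for 28 of the 35 members, with 34 start sites; those of Egr1, Egr3, Ier2, Dusp4, Arc, Nptx2 and Sik1 are named only. The full cAMP response element was in the promoters of 3 of these 28 genes (Btg2, Dusp1 and Maff) and in 1.77% of all 27025 genes of the table. Its core was in 19 of 28 (67.9%) and in 19.8% of all genes. In 11 members a promoter held 2 or more matches of the core on either strand, as did 4.46% of all genes. For Btg2 and Maff, 2 of these matches were the strands of 1 full element, with no other core in that promoter. The CArG box was in 2 of 28 (Dusp5 and Egr2; 1.62% of all genes), the EGR site in 1 (Maff; 0.622%) and the AP-1 site in 0 of 28 (7.82%). Among the members called between KD and DR, Egr4, Nr4a1 and Nr4a2, higher in KD, and Maff, lower in KD, all held the core. Fosl2 and Klf6 held none of the searched motifs. For Fosl2 the start site lies within the gene as annotated, and all 200 bases before it lie in annotated exons. Bases before the annotated start of that gene were therefore not searched. These matches are descriptions of the letters, with no test.

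**Figure D3:**
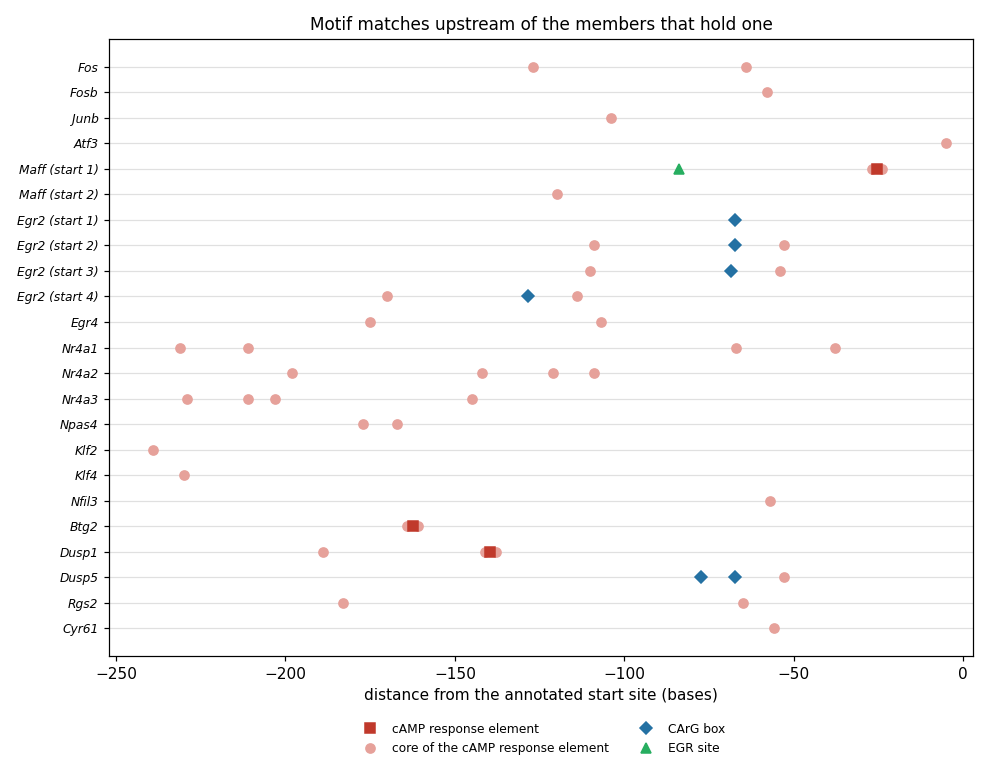
Position of motif matches (horizontal axis, bases before the annotated start site) in the promoters of the members that hold one (rows; genes with several start sites have a row for each). Cores of the cAMP response element stand at 4 places in each of Nr4a1, Nr4a2 and Nr4a3, full elements in Maff, Btg2 and Dusp1, and CArG boxes in Dusp5 and Egr2.

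Npas4, a transcription factor that in neurons responds almost solely to calcium entry, ran over a ratio of 4.10 between the highest and the lowest of the 12 mice, a ratio exceeded among tested members by the sparsely counted Nptx2 (4.19) and Ptgs2 (4.53) alone. It was at 26.0, 15.5, 8.24 and 22.2 CPM in AL, at 12.5, 12.3, 12.8 and 13.0 CPM in DR and at 16.2, 18.7, 33.8 and 12.1 CPM in KD. AL mice ran from below to far above the DR mice, which lay close together. The coefficient of variation was 43.4% in AL, 46.7% in KD and 2.58% in DR, where counting error alone would give 4.02% at the mean depth. The log2 fold change was -0.51 for DR against AL (SE 0.23, adjusted p = 0.257) and 0.68 for KD against DR (SE 0.21, adjusted p = 0.0805). The first became -0.75 with an adjusted p of 0.00462 without AL mouse 3 and -0.27 with an adjusted p of 0.603 without AL mouse 1, and the second 0.86 with an adjusted p of 0.0148 without KD mouse 4, while without KD mouse 3 it was 0.31.

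Arc, a capsid-like protein that removes AMPA receptors from synapses, differed between KD and DR. Arc (chr15:74669083-74672570, minus strand) was at 21.5, 17.1, 19 and 19.6 CPM in AL, at 17.6, 15.8, 14 and 18.9 CPM in DR and at 20.7, 20.7, 22.8 and 22.1 CPM in KD. The KD mice lay above all DR mice, and the AL mice overlapped with both. KD against DR gave 0.38 (SE 0.08, adjusted p = 0.0139) on the log2 scale, with the call lost without KD mouse 3 (0.35, adjusted p = 0.054). DR against AL was -0.22 (SE 0.09, adjusted p = 0.233). Unlike the FOS and NR4A genes, Arc was not low in AL mouse 3, at 19 CPM.

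Among the MAP kinase phosphatases, which end ERK, JNK and p38 signals, none of 4 changed in any comparison. Dusp6, a cytoplasmic ERK phosphatase, had a log2 fold change of -0.21 for DR against AL at an unadjusted p under 0.05 (adjusted p = 0.135). For KD against DR, Dusp4 stood at 0.23 (adjusted p = 0.19; 0.13 without KD mouse 3) and Dusp5 at 0.12 (adjusted p = 0.128). Every KD mouse exceeded every DR mouse for Dusp5, which was between 92.0 and 96.6 CPM in KD and 81.9 and 90.9 CPM in DR. Dusp1 was between 28.5 and 56.0 CPM over all mice, both ends being KD mice.

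The early regulators and the remaining members passed no test. Ier2, a small nuclear protein, was closest, with -0.22 for DR against AL (adjusted p = 0.253) and 0.35 for KD against DR (adjusted p = 0.121), values that moved to -0.14 without AL mouse 1 (adjusted p = 0.56) and to 0.19 without KD mouse 3 (adjusted p = 0.356). Ier5 lay between 9.90 and 13.1 CPM, and the growth arrest genes Gadd45b and Gadd45g between 8.81 and 13.1 CPM and between 17.8 and 26.2 CPM. The Krüppel-like factors Klf2 and Klf4, both also known from endothelium, were between 1.68 and 2.87 CPM and between 5.61 and 9.05 CPM, and the bZIP repressor Nfil3 between 10.9 and 16.3 CPM. Of the effector genes, the salt-inducible kinase Sik1 was between 8.14 and 11.9 CPM, the G protein regulator Rgs2 between 10.2 and 14.7 CPM and the secreted matrix protein gene Cyr61 between 0.675 and 1.44 CPM. The synaptic pentraxin Nptx2 (0.358 to 1.5 CPM) and the prostaglandin synthase Ptgs2 (0.125 to 0.566 CPM) had means of only 31 and 13 reads in a library.

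AL mouse 3 and KD mouse 3, singled out after their values were seen, lay at the edge of their diets for many members. The AL and DR mice were dissected over a window of hours early in the dark period. The paper reports core clock gene levels that changed across that window in both diets. The part of the hour of dissection in the spread of the members was not tested. AL mouse 3 was the lowest of the 4 AL mice for 20 of 34 members, beside 29.2% of all genes, and the highest for 1, Egr1. KD mouse 3 was the highest of the KD mice for 20 of 34, beside 28% of all genes. Both held for 16 members, namely all 3 NR4A genes, the 3 FOS genes, Npas4, Egr4, Nfil3, Ier2, Gadd45b, Dusp1, Dusp4, Dusp5, Sik1 and Rgs2 (47.1%, beside 8.97% of all genes). Summed over the 35 members, the AL mice had 736, 701.1, 547 and 674.9 CPM, the DR mice 562.8, 573.9, 582.6 and 597.6 CPM and the KD mice 624, 624.1, 800.7 and 579.8 CPM. AL mouse 3 thus lay below every DR mouse on this sum, and 1 KD mouse lay within the DR range.

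**Figure D4:**
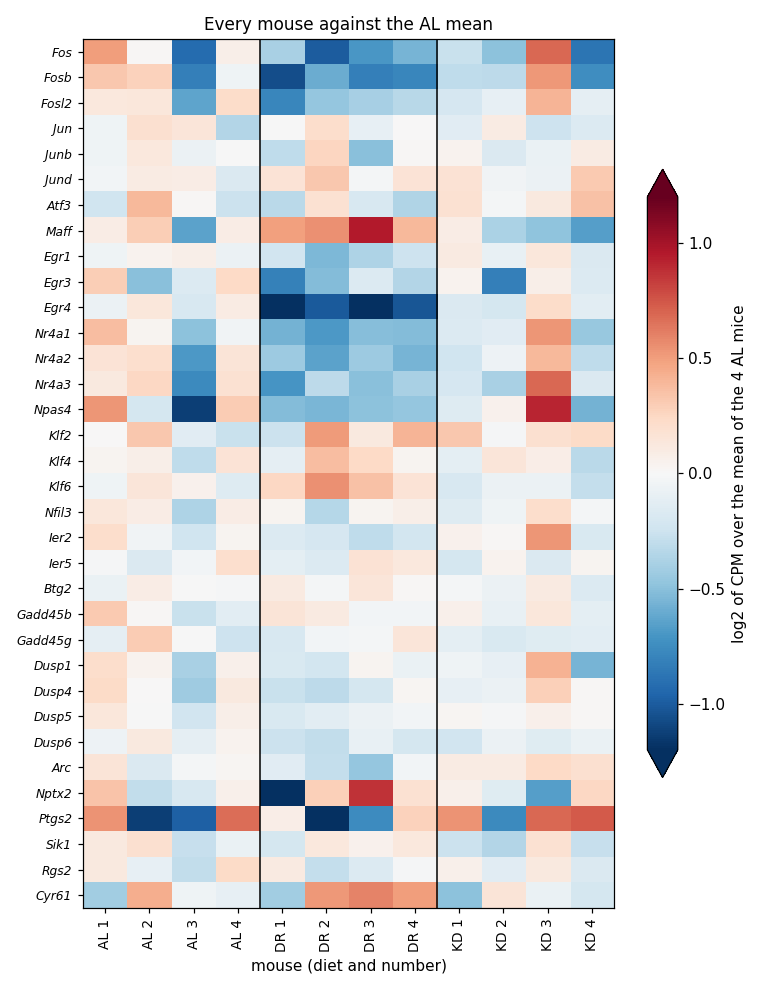
Log2 of each mouse's CPM over the mean of the 4 AL mice (colour) for the 34 tested genes (rows) and the 12 mice (columns, by diet). AL 3 is blue and KD 3 red across the FOS and NR4A genes and Npas4, Egr4 is blue in all 4 DR mice, and Klf6 and Maff are red in all 4 DR mice.

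Without AL mouse 3, 10 members passed the threshold between DR and AL, 9 lower and 1 higher, beside 712 of 19355 genes. Fos, Fosb, Fosl2, Egr1, Egr4, Nr4a1, Nr4a2, Nr4a3 and Npas4 were lower and Klf6 was higher. That mouse was singled out after its low values for many of these members were seen, so the larger count is no independent result. Leaving out any other mouse gave 2 or 3 members, beside 235 to 442 genes in all. With all 8 libraries there were 4 members and 583 genes, so calls over all genes fell as well. Only 2 members were called with AL mouse 1, AL mouse 4, DR mouse 1, DR mouse 2 or DR mouse 3 left out, in each case Egr1 and Egr4. For KD against DR the number was between 5, without KD mouse 3, and 9, without KD mouse 2 or KD mouse 4. Those 3 fits called 467, 758 and 601 genes in all, beside 942 with every mouse.

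Genes induced by heat were also low in AL mouse 3 and high in KD mouse 3 for their diets. The summed level of 8 heat-inducible chaperone genes was 800, 769, 574 and 820 CPM in AL, 530, 577, 499 and 577 CPM in DR and 692, 638, 758 and 708 CPM in KD. AL mouse 3 was within the DR range and KD mouse 3 the highest of KD. Other mice did not keep their order between this sum and that of the members. KD mouse 4 was the lowest of KD for the members (579.8 CPM) but above KD mice 1 and 2 here. DR mouse 3 was the lowest of DR here but above DR mice 1 and 2 for the members (582.6 CPM). Of these 8 genes, 5 were lower in DR than in AL, beside 1.74% of all genes. On the log2 scale Hspa1a was at -1.15, Hspa1b at -1.13, Hsph1 at -0.60 and Bag3 at -0.34. Of the 8, 7 were higher in KD than in DR, beside 2.43% of all genes, with Hspa1a at 0.79 and Hspa1b at 0.77. The list was chosen with earlier results of these data known. Hspa1a and Hspa1b are near-identical copies, so reads may be split between them. The part of the heat-inducible genes, or of what sets them, in the differences of the members was not tested.

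KD against AL gave no call for any member, nor for any of 19036 genes (0%) by edgeR, while DESeq2 called 9 genes and 0 members. Without the filter on low counts edgeR called 118 genes, and it called 6, 2 and 5 genes without AL mouse 1, 3 and 4, again with 0 members each. At an unadjusted p under 0.05 there were 2 members, Arc (log2 fold change 0.16, adjusted p = 0.994) and Klf6 (-0.15, adjusted p = 0.994), where 4.87% of all genes passed. Ranges overlapped for all 34 members, where 2.96% of all genes did not overlap. For Egr4 the log2 fold change of KD against AL was -0.06 (SE 0.14), for Egr1 0.01 (SE 0.07) and for Nr4a1 -0.01 (SE 0.18). A smaller difference than these errors allow would not have been seen. The median over members was -0.03, beside 0.00021 over all genes.

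KD against DR gave 8 calls, 6 higher (Egr4, Arc, Egr1, Fosl2, Nr4a2 and Nr4a1) and 2 lower (Klf6 and Maff), among 34 members (23.5%), beside 942 of 19087 genes (4.94%), 2.43% higher and 2.51% lower. An unadjusted p under 0.05 was reached by 15 members, 13 higher and 2 lower, and by 18.7% of all genes. Ranges did not overlap for 9 members, 7 higher and 2 lower, and for 11.8% of all genes. This comparison shares its 4 DR mice with that of DR against AL, so its values are no independent evidence of where DR stands. The 3 tested EGR genes had a median of -0.44 for DR against AL and 0.35 for KD against DR. Medians were -0.51 and 0.52 for the 3 NR4A genes and -0.15 and 0.10 for the 4 phosphatases. The other groups of members had smaller medians or the opposite sign. These were -0.14 and 0.20 for the 8 AP-1 and related genes and 0.14 and -0.03 for the 5 other transcription factors. The 5 early regulators had 0.01 and -0.08, and the 6 signalling and effector genes -0.03 and -0.07.

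The members varied more between mice of a diet than genes at large, with the smallest median in DR. The median coefficient of variation of the 34 members was 16.8% in AL, 11.8% in DR and 13.6% in KD, beside 8.52%, 8.94% and 7.63% over the 19557 genes that passed the filter across the 12 libraries. Their levels were similar, with a median of 13.1 CPM for members and 11.2 CPM for all genes. DR had the smallest coefficient of the 3 diets for 15 of 34 members, beside 28.1% of all genes. Fos was at 36.4% in AL, 17.3% in DR and 50.9% in KD, and Nr4a1 at 24%, 5.44% and 31.4%. Egr1 did not share this, with 5.04% in AL, 9.54% in DR and 10.3% in KD. Other members had their largest coefficient in DR. Among them were Egr4 (10.4% in AL, 14.8% in DR, 14.6% in KD), Klf6 (8.84%, 11.7%, 7.3%) and Arc (9.35%, 12.8%, 4.82%). With 4 mice a diet these are descriptions, and no test of the spread was made.

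**Figure D5:**
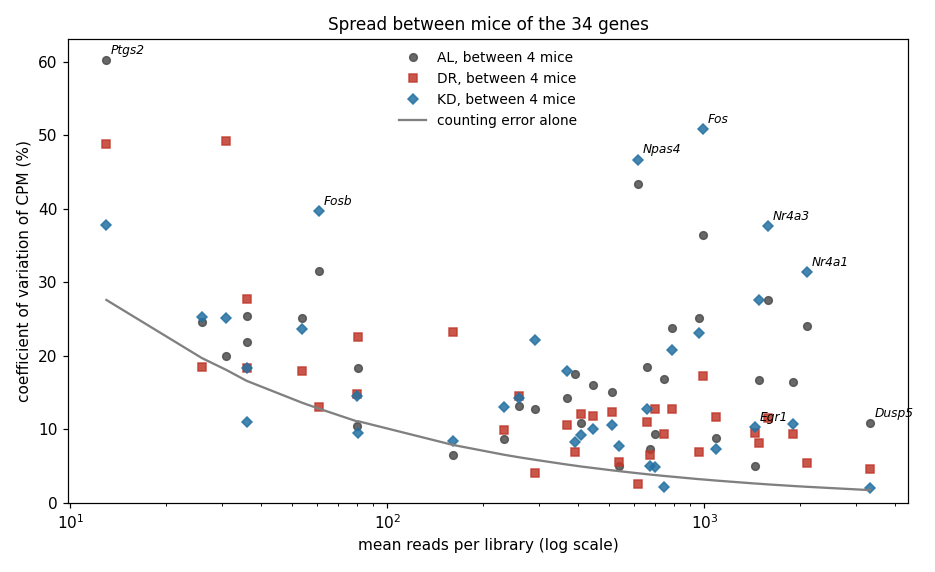
Coefficient of variation of CPM between the 4 mice of a diet (vertical axis, percent) against the mean reads in a library (horizontal axis, log scale) for the 34 genes, with the part that counting error alone would give as a line. Npas4, Fos, Nr4a3 and Nr4a1 lie far above the line in AL and KD, while Npas4 lies under it in DR at 2.58%.

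Genes upstream of the members were read against the share of all genes called, 3.06% for DR against AL and 4.94% for KD against DR. Of 20 transcription factors and coactivators that act on their promoters, 1 changed: Elk4, a ternary complex partner of SRF, was lower in DR than in AL (log2 fold change -0.31, adjusted p = 0.0335) and lower in DR than in KD (0.33, adjusted p = 0.00861). None of 29 kinases and phosphatases that carry calcium and ERK signals to the nucleus changed in any comparison, though 4 of 29 reached an unadjusted p under 0.05 in each comparison with DR, as did 4 of the 20 factors, where 18% and 18.7% of all genes did; these shares are near the background and are no result about the lists. Among 43 other activity-induced genes, 2 changed between DR and AL, both higher: Cdkn1a, an inhibitor of the cell cycle (0.50, adjusted p = 0.0295), and Errfi1, an inhibitor of EGF receptor signalling (0.35, adjusted p = 0.023). Between KD and DR 9 of them changed, with Cdkn1a (-0.97), the small GTPase gene Arl4d (-0.78), the glucocorticoid-induced kinase Sgk1 (-0.63) and Errfi1 (-0.56) lower and 5 higher, named here after their values were seen: Klf10, Spry2, Nrn1, Dusp3 and Tsc22d1. None of the 3 lists held a call for KD against AL, and for DR against AL their medians were -0.05, -0.02 and -0.04.

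Some cell type markers moved between the same diets, counted beside the share of all genes called. That share was 3.06% for DR against AL and 4.94% for KD against DR. Of the 5 choroid plexus and the 5 forebrain neuron markers, 3 each were tested. In DR the Purkinje cell markers summed to between 5760 and 6620 CPM, beside 6820 to 7320 CPM in AL and 6730 to 6930 CPM in KD. Granule cell markers summed to between 6040 and 6170 CPM in DR, within the AL range of 5840 to 6360 CPM, and 0 of 8 changed between DR and AL. Between DR and AL, 2 of 7 markers of Bergmann glia and astrocytes, 1 of 6 of oligodendrocytes and 1 of 4 of their precursors were lower, and 0 markers of interneurons, microglia, endothelium, mural cells, meninges, choroid plexus, red blood cells or forebrain neurons changed. Between KD and DR, 3 of 7 Bergmann glia and astrocyte, 2 of 6 oligodendrocyte and 1 of 4 precursor markers were higher. So were 1 of 8 endothelial and 1 of 3 tested choroid plexus markers, and 1 of 8 granule cell markers was higher and 1 lower. The part of such markers in the members' differences was not tested.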

How the data were processed

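RNA-seq counts of 12 libraries were read from the deposited table. Per the labels and the submitters' processing notes, the authors trimmed reads with Trimmomatic 0.39, aligned them with STAR 2.7.0f to GRCm38.p6 and counted them per gene with featureCounts of Subread 1.6.4; the deposited counts are whole reads, not normalized. Libraries were made with an unstranded poly(A) kit, and the strand setting of the counting is not given in the sources used here. Members and lists were chosen with earlier results of these data known. Symbols were matched for 54723 of 54752 identifiers; Cyr61 was matched as a synonym. For each comparison, edgeR 4.0.16 was run on its 8 libraries, with low genes removed by filterByExpr (its rule of 10 counts scaled to library size in enough libraries, and 15 in all), TMM factors and the quasi-likelihood F test (Benjamini-Hochberg threshold 0.05) in R 4.3.3, with DESeq2 1.42.0 as an alternative. The code was tested on simulated data. CPM used TMM over all 12 libraries, and RPKM the deposited lengths. All 35 members are named: those called in a comparison with every mouse's value and its statistics, those at an unadjusted p under 0.05 with their fold change, the others by range; of other lists, up to 4 called genes by size. Fos, Fosb, Nr4a3 and Npas4 were added to the first kind after their values were seen. Promoter sequences are from RefSeq (GRCm38.p6). Labels do not say that mice were litter-mates or how they were caged. The p-values set each difference between diets against the spread between these mice. Left-out mice, scaling, filters and models were varied. Calls of single Purkinje cell markers are not reported here.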

Additional observations from a re-analysis of the deposited data

Results flagged for a closer look

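In 9 of 102 groups of 4 mice (34 members in 3 diets) the highest or lowest mouse stood apart by Dixon's criterion, which sets the gap to the nearest mouse against the whole range of the group. Chance flags about 1 in 20 such groups, and members that vary together are flagged together. AL mouse 3 was the low one for Fosl2 (15.4 CPM, the other AL mice at 26.1 to 27.7 CPM), Nr4a2 (18.3 CPM, others 32.7 to 33.8 CPM), Nr4a3 (27.9 CPM, others 51.4 to 56.2 CPM) and Nfil3 (10.9 CPM, others 15 to 15.5 CPM). KD mouse 3 was the high one for Fosl2 (31.7 CPM, others 20.7 to 22.3 CPM), Nr4a3 (76.2 CPM, others 36.1 to 42 CPM) and Sik1 (11.8 CPM, others 8.14 to 8.73 CPM). In DR, mouse 2 was low for Nfil3 (11.1 CPM, others 14.4 to 14.8 CPM) and mouse 1 for Cyr61 (0.715 CPM, others 1.35 to 1.44 CPM).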

How the results depend on the processing

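No paired analysis was possible because the labels give no replicate numbers shared between diets. The number of members called kept within 1.5 times its main value (4 for DR against AL, 0 for KD against AL, 8 for KD against DR) under DESeq2's test, DESeq2's size factors, library size alone, a minimum mean of 10 CPM and the newer edgeR 4 fit, the last chosen after seeing the data, since the planned edgeR 3 fit proved to be the default used. Without a filter on low counts it was 10 for DR against AL, beside 1258 of 35284 genes, and 13 for KD against DR, beside 1503 of 35453 genes. The members' median log2 fold changes stayed at -0.11 and 0.08 there, so the p-values moved and not the sizes of the changes. With all 12 libraries in one fit it was 5 for KD against DR, beside 949 of 19557 genes. The cause was not tested. Leaving out 1 mouse gave 2 to 10 members for DR against AL, beside 235 to 712 genes in all. It gave 0 for KD against AL, beside 0 to 6 genes, and 5 to 9 for KD against DR, beside 467 to 946 genes. Of the single-gene fold changes under alternatives, 407 kept their direction and side of the threshold, 20 gained and 30 lost a call, and none reversed. Low counts limit Egr2, Ptgs2, Nptx2, Egr3, Cyr61 and Atf3.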
